A study of Mus musculus with 2 samples.

Results

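CTCF, a DNA-binding protein of insulators that anchors loops of chromatin jointly with cohesin, was mapped by chromatin immunoprecipitation and sequencing across the imprinted Kcnq1 and Cdkn1c domain of mouse chromosome 7. The tissue was limb of strain B6NCrl at embryonic day 14.5, pulverised and pooled over multiple dissections, with both sexes mixed. Replicate 1 and replicate 2, the only 2 libraries, are numbered in the labels as biological replicates. They were made from the same pool and form 1 group, for which the labels name no treatment, so the spread between them may be technical. The domain was taken from 100 kb before the first to 100 kb past the last of its 8 genes Ascl2, Cd81, Tssc4, Kcnq1, Kcnq1ot1, Cdkn1c, Slc22a18 and Phlda2, which is chromosome 7 from 142866829 to 143603150 on the mm10 build (736.3 kb). Every peak of the authors' optimal list with its summit inside was kept, which gave 37 of 49970 peaks. They are numbered 1 to 37 along the chromosome, left meaning lower coordinates.

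Imprinted genes are expressed from the copy of one parent. In this domain the control region lies at the promoter of Kcnq1ot1, a long noncoding RNA that runs antisense inside the potassium channel gene Kcnq1. The control region is methylated on the maternal copy, and Kcnq1ot1 is made from the paternal copy, where it silences neighbours such as Cdkn1c, an inhibitor of cyclin-dependent kinases that restrains growth, and Phlda2, a pleckstrin homology domain protein that limits placental growth. Ascl2 (a basic helix-loop-helix factor of the trophoblast), Cd81 (a tetraspanin) and Tssc4 lie on the other side of Kcnq1 and are known to be imprinted mainly in the placenta. These libraries do not separate the parental copies, and in pulverised tissue binding in fewer cells and weaker binding per cell cannot be told apart.

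The sequences of the strongest peaks and of the peaks on either side of Kcnq1ot1 show how close each site came to the CTCF consensus. A position matrix of 20 bases was refined on strong peaks of autosomes other than chromosome 7, with the consensus TGGCCACCAGGGGGCGCTAG. Each line gives 60 bases of mm10, 5′ to 3′ on the strand of the motif, with the best match in capitals.
Peak 28, upstream of Cdkn1c, chr7:143464055-143464114, reverse strand: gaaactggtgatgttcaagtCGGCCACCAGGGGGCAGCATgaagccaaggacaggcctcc
Peak 29, upstream of Cdkn1c, chr7:143466473-143466532, reverse strand: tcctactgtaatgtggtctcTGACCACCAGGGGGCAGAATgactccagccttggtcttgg
Peak 30, upstream of Slc22a18, chr7:143470135-143470194, reverse strand: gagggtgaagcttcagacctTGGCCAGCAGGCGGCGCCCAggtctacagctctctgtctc
Peak 24, Kcnq1 intron left of Kcnq1ot1, chr7:143153972-143154031, forward strand: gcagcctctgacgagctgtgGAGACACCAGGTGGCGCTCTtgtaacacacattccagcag
Peak 25, Kcnq1 intron right of Kcnq1ot1, chr7:143329617-143329676, forward strand: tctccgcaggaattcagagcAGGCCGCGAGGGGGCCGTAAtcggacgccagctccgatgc
Peak 2, Th intron, chr7:142919427-142919486, reverse strand: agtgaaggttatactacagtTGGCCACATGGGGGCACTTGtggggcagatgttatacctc
Peak 1, Th intron, chr7:142894834-142894893, forward strand: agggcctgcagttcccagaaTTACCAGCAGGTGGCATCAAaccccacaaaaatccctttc
Peak 7, upstream of Tspan32os, chr7:143008190-143008249, forward strand: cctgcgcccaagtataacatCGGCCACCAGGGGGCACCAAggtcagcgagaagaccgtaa
Peak 17, upstream of Trpm5, chr7:143094886-143094945, forward strand: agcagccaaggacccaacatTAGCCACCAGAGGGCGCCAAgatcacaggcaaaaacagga
The run CCACCAGGGGGC of the consensus occurs, among these sites, in peaks 28, 29 and 7. Peak 25, with 3 CpG in its 20 bases, has a weaker match, at 7.98 bits against 26.1 for peak 28 (the score is a log2 odds against background bases).

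The domain was rich in CTCF peaks. Its 37 peaks correspond to 5.02 per 100 kb, against 2.27 on chromosome 7 and 1.83 on all main chromosomes. Pooled signal, the authors' value per peak on the scale of the optimal list, had a median of 102.7 and ran from 15.02 to 457.9, with quartiles of 27.7 and 195.8. Over all optimal peaks the median was 58.4, with quartiles of 29.8 and 141.8. The domain held both strong and weak sites: 19 peaks (51.4%) reached a signal of 100, which 34.5% of all optimal peaks did, and 15 stayed under 50. Strong peaks stood mostly in groups. Left of Kcnq1ot1 there were 2 in Th, 1 near Tspan32os, 4 around Trpm5 and 4 in the left part of Kcnq1. Right of it, 3 lay between Cdkn1c and Slc22a18, 1 in Slc22a18, 2 upstream of Phlda2, and 2 in Nap1l4 and Cars. Neighbouring summits lay a median of 9.07 kb apart, against 18.1 kb over all optimal peaks, and 14 of the 37 had another within 1 kb.

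**Figure D1:**
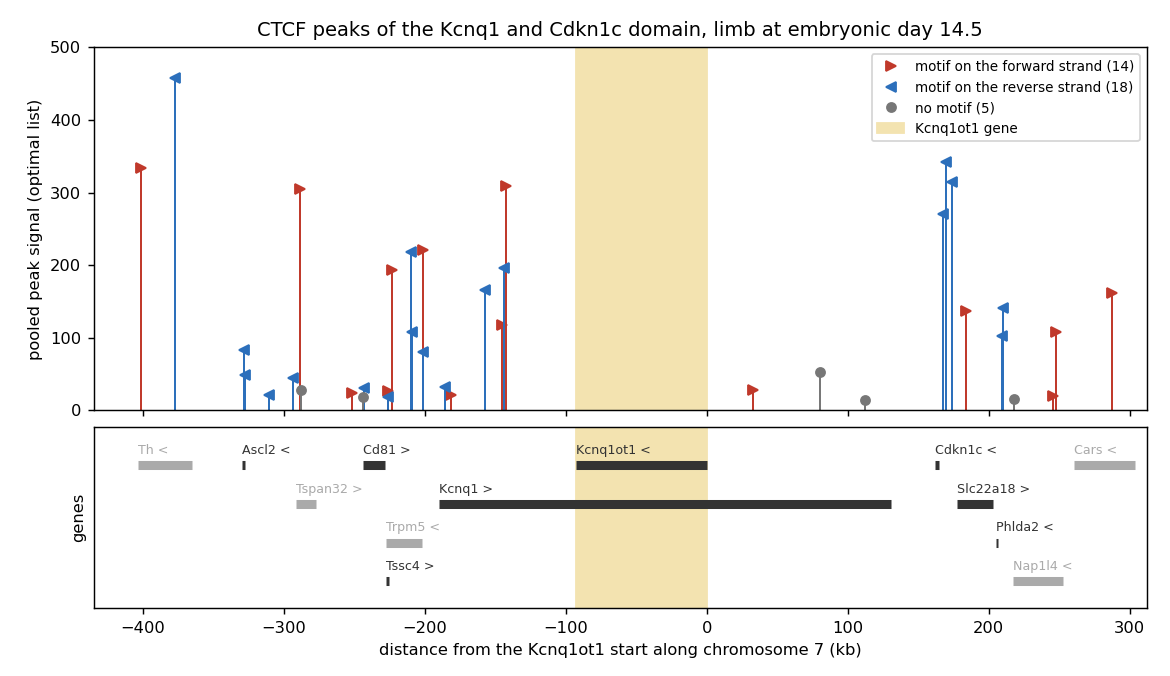
Pooled signal of the 37 optimal peaks (vertical axis) against the distance from the Kcnq1ot1 start in kb (horizontal axis), with arrowheads for the strand of the motif and gene spans below (dark for the 8 genes of the domain, grey for neighbours, > and < for the strand). No peak falls in the shaded Kcnq1ot1 gene, and the 3 tall peaks between Cdkn1c and Slc22a18 all have the motif on the reverse strand.

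A trio of strong sites stood close together between Cdkn1c and Slc22a18, the gene of an organic cation transporter-like protein. Their summits spanned 6.07 kb of intergenic sequence. Peak 28, 3038 bp upstream of the Cdkn1c start, had a pooled signal of 270.0, with 146.7 in replicate 1 and 123.2 in replicate 2. Peak 29, 5453 bp upstream of Cdkn1c, was the strongest peak right of Kcnq1ot1, at 342.0 pooled, 171.1 in replicate 1 and 167.85 in replicate 2. Peak 30, 3581 bp upstream of the Slc22a18 start, reached 314.7, with 172.2 and 144.7 in the replicates. All 3 motifs lay on the reverse strand, with scores of 26.1, 24.1 and 18.3 bits, and the first of these was the highest of the domain. None of the 3 lay within 1 kb of a transcript start, so neither Cdkn1c (chromosome 7, 143458339 to 143461050) nor Slc22a18 (143473736 to 143499334) counted as having a promoter peak. Slc22a18 also held peak 31 in an intron, 6969 bp inside the gene, with a signal of 137.2 and a forward motif.

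Phlda2 (chromosome 7, 143501545 to 143503150) had no promoter peak either, and a pair of moderate sites lay upstream of it. Peak 32, 2912 bp from the Phlda2 start, had a signal of 102.7, with 50.1 in replicate 1 and 52.7 in replicate 2. Peak 33, 3765 bp from the start, had 141.0, with 62.7 and 78.2. Both motifs were on the reverse strand and inside soft-masked repeat sequence.

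Kcnq1 (chromosome 7, 143106362 to 143427042, forward strand) held 9 peaks in its introns, or 2.81 per 100 kb, and they were unevenly placed. Of these, 6 lay left of Kcnq1ot1 and 3 right of its start, and the Kcnq1 starts themselves had no peak within 1 kb, the nearest being 1829 bp away (peak 19, signal 32.6). The left 6 all had a motif and a median signal of 141.3. Strongest among them was peak 24, at 309.3 pooled, 147.4 in replicate 1 and 161.3 in replicate 2. Peak 23, 1.495 kb to its left, had 195.8, with 110.4 and 85.9. The right 3 were weak, at 28.1, 52.7 and 15.02, and of these only peak 25 had a motif. Its neighbours, peaks 26 and 27, had no motif, and peak 27 had no summit within 100 bp in the replicate 2 list, the only such case in the domain.

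No optimal peak lay in Kcnq1ot1 (chromosome 7, 143203458 to 143296549, reverse strand, 93.1 kb). The stretch without a peak ran from peak 24 at 143154001 to peak 25 at 143329626, or 175.6 kb. Of all gaps between neighbouring optimal summits, 5.35% were at least that long. That share is for any single gap, whereas this one is the longest of the domain, so it does not say how rare such a longest gap is. The second longest of the domain was 55.1 kb, between peaks 27 and 28. Peak 25 was the nearest to the Kcnq1ot1 start, 33.1 kb upstream of it, with a signal of 28.1, with 10.1 in replicate 1 and 16.3 in replicate 2; peak 24 lay 49.5 kb beyond the other end of the gene. The conservative list and the replicate 2 list cut to its strongest 49970 had a longest gap of 175.6 kb as well. Replicate 1 cut in the same way had 223.0 kb, since peak 25 dropped out there. The strongest 50% of the optimal list had 310.1 kb, from peak 24 to peak 28. Being part of the optimal list, it could add no peak to the gap.

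Weak entries of the full lists, which hold 300000 peaks each, did fall inside the gap. The pooled list had 32 between peaks 24 and 25, the replicate 1 list 35 and the replicate 2 list 23. Their highest pooled signal was 13.8, at 13.96 kb upstream of the Kcnq1ot1 start, with 8.27 in replicate 1 and 4.81 in replicate 2, against 15.02 for the weakest of the 37 peaks. The optimal list repeats the pooled signal at the same summits (49959 of 49959 within 0.001), and genome-wide it reaches down to 5.14, with 1% of its peaks under 13.9, so 13.8 is near the low end of that list and not outside it. Of the 32 pooled entries, 2 had a summit in both replicate lists, 26 in 1 of them and 4 in neither, and 6 had a motif. No share over the whole pooled list stands beside these counts, so whether they are unusual cannot be said. Entries were denser in the gap than in the lists as wholes, which hold 11.004 per 100 kb (pooled), 11.003 (replicate 1) and 11.004 (replicate 2): the gap had 18.2, 19.9 and 13.1. Within Kcnq1ot1 itself they were sparser, with 8 pooled entries (8.59 per 100 kb), 10 in replicate 1 (10.7) and 2 in replicate 2 (2.15). Within 10 kb of its start, where the control region lies, there were 6, 6 and 2 entries. Per 100 kb that was 29.9985 (pooled), 29.9985 (replicate 1) and 9.9995 (replicate 2). The pooled and replicate 1 densities were above those of their whole lists and that of replicate 2 was below, all from few entries. Nearest to the start was a replicate 1 entry 80 bp inside the gene, with a signal of 6.53 and no summit within 100 bp in the pooled list. The next lay 908 bp inside, with 8.70 in the pooled list, rank 109150 of 300000, and 6.63 in replicate 1, rank 76012. Both replicate 1 values were above that list's median of 4.35, and the pooled value above the median of 7.18. Replicate 2 had no entry within 1 kb of the start, so none there was found in both libraries, and the depth behind the lists is unknown.

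**Figure D2:**
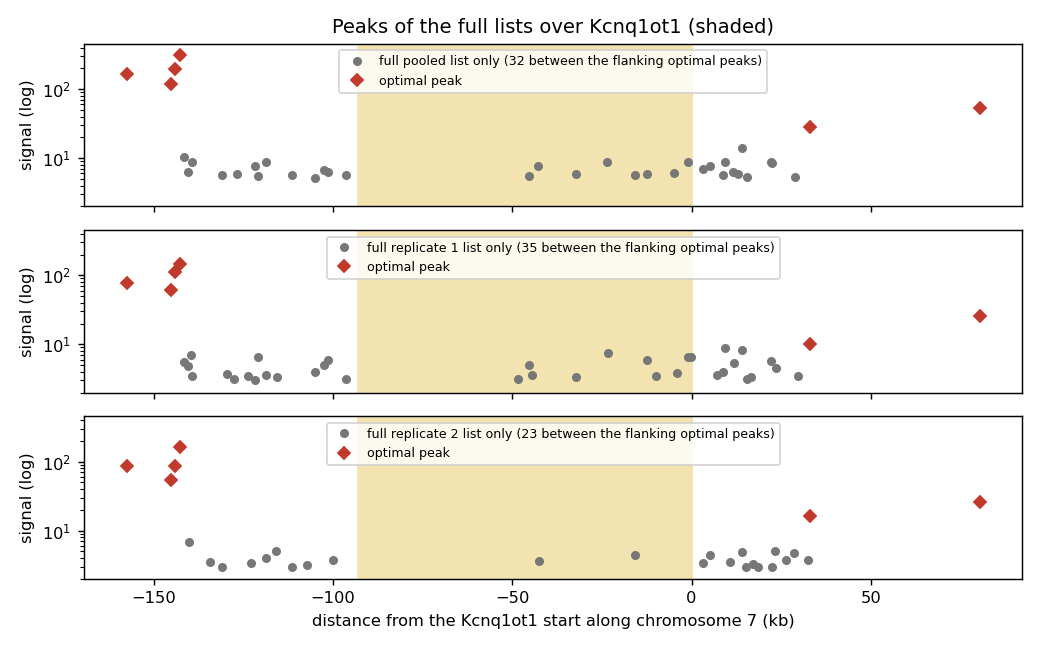
Signal on a log axis against the distance from the Kcnq1ot1 start in kb, for the pooled list (top), replicate 1 (middle) and replicate 2 (bottom), with optimal peaks as diamonds, all other entries of the full lists between the flanking optimal peaks as circles, and Kcnq1ot1 shaded. The 32 pooled circles stay at or below 13.8, while the optimal peak at the left edge of the gap reaches 309.3.

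Of the 8 genes, 3 had an optimal summit within 1 kb of a transcript start, namely Ascl2, Cd81 and Tssc4, all left of Kcnq1. Over all protein-coding and long noncoding genes the share was 27.5%, so the count of 3 of 8 sets these genes apart in no clear way. The motif sequences at these promoters are shown for comparison with the strong sites.
Peak 3, Ascl2 coding exon, chr7:142968238-142968297, reverse strand: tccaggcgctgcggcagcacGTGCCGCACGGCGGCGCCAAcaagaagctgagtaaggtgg
Peak 4, upstream of Ascl2, chr7:142969266-142969325, reverse strand: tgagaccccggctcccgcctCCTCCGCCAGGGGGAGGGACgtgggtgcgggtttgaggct
Peak 11, near the Cd81 start, chr7:143053141-143053200, reverse strand: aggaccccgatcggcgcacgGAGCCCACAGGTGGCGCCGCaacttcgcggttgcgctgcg
Peak 12, Tssc4 coding exon, chr7:143070123-143070182, reverse strand: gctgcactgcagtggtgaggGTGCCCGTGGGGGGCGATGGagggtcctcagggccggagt
Peak 13, Tssc4 coding exon, chr7:143070707-143070766, forward strand: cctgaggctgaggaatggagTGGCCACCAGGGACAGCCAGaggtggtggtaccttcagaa
Their best matches scored 5.23, 12.6, 4.62, 4.75 and 8.51 bits in this order. All were below 14.7 bits, the median over those optimal peaks that had a motif. Scores overlapped with those of strong peaks, since peaks 14 and 33, with signals of 194.1 and 141.0, had 10.8 and 12.4 bits.

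At Ascl2 (chromosome 7, 142966829 to 142969264, reverse strand) peak 4 lay 7 bp upstream of the start, with a signal of 49.0, with 21.1 in replicate 1 and 26.1 in replicate 2. Peak 3, 993 bp inside the gene and 446 bp from its nearest transcript start, was stronger, at 83.3, with 41.9 and 40.8 in the replicates. It lay in coding sequence with 27 CpG in the window around its summit, the most of the 37 peaks, and with 4 CpG in the motif, also the most. Cd81 (143052739 to 143067934, forward strand) shares its start region with R74862, a noncoding gene on the other strand. Peak 10, 239 bp upstream of Cd81, had 18.6, with 7.92 and 10.01, and no motif. Peak 11, 128 bp from the nearest Cd81 start, had 30.95, with 15.2 and 16.1. Tssc4 (143069249 to 143071093, forward strand) lies inside Trpm5 on the opposite strand, and both its peaks were in coding sequence. Peak 12 had 18.7, with 5.18 in replicate 1 and 10.7 in replicate 2, and peak 13 had 27.01, with 10.4 and 15.6. At every one of these 6 summits the signal was under the domain's median.

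The strongest peak of the domain and several of its 10 strongest lay beside other genes. Peak 2, in an intron of Th (tyrosine hydroxylase, the first enzyme of catecholamine synthesis), ranked 73 among all optimal peaks on the main chromosomes, with 457.9 pooled, 251.0 in replicate 1 and 210.9 in replicate 2. Peak 1, also in Th, had 334.0, with 166.1 and 172.2, and the 2 motifs pointed towards each other. Peak 7, 178 bp upstream of the start of the antisense gene Tspan32os and in an exon of Tspan32, had 305.6, with 154.7 and 154.2. Trpm5, a cation channel of taste cells, had 5 peaks within 1 kb of its transcript starts, from 80.4 to 221.5. Strongest of these were peak 17, at 221.5 with 111.0 and 109.5, and peak 15, at 217.9 with 119.1 and 101.6.

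Of 12 other listed genes in and around the domain (Tspan32, Trpm5, Th, Ins2, Nap1l4, Cars, Osbpl5, Tnfrsf22, Tnfrsf23, Tnfrsf26, Dhcr7 and Nadsyn1), 4 had a promoter peak. These were Trpm5, the histone chaperone gene Nap1l4 (signal 19.6), the lipid transfer protein gene Osbpl5 (37.2) and Dhcr7, which encodes the last enzyme of cholesterol synthesis (246.5). By position, 14 of the 37 peaks were within 1 kb of a transcript start, against 21% of all optimal peaks. Of the others, 16 lay in introns (38.6% of all), 6 between genes (35.2%) and 1 in an exon (5.22%). Each peak was counted once, nearness to a start first, so peaks 3, 7, 12 and 13 in exons are among the 14. Of the 19 genes that start in the domain, 7 had a promoter peak, namely Ascl2, Tspan32os, R74862, Cd81, Trpm5, Tssc4 and Nap1l4. Over all protein-coding and long noncoding genes the share was 27.5%. For protein-coding genes alone, as the 12 listed are, it was 33.4%.

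A motif within 50 bp of the summit was found in 32 of 37 peaks (86.5%, exact 95% binomial interval 71.2 to 95.5, counting error only), against 82.5% of all optimal peaks. The score needed, 3.60 bits, was one that 5% of windows 1 kb away reached. At the stricter 10.4 bits, reached by 1% of such windows, 25 of 37 had a motif (63.1% of all). All 19 peaks with a signal of at least 100 had one at either threshold, which at the first held for 93.8% of all optimal peaks from 100 to 200 and 97.4% of those above. The 5 peaks without a motif were weaker, with a median signal of 18.6 against 112.6 for the other 32. Over all optimal peaks those medians were 29.5 and 71.5. GC content of a window of 100 bp on each side of the summit was a median of 54.7% in the domain and 49.8% over all. Stronger peaks tended to have higher motif scores, with a Spearman rho of 0.69 over 37 peaks and 0.47 over all 49959, as a description of peaks that share libraries.

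**Figure D3:**
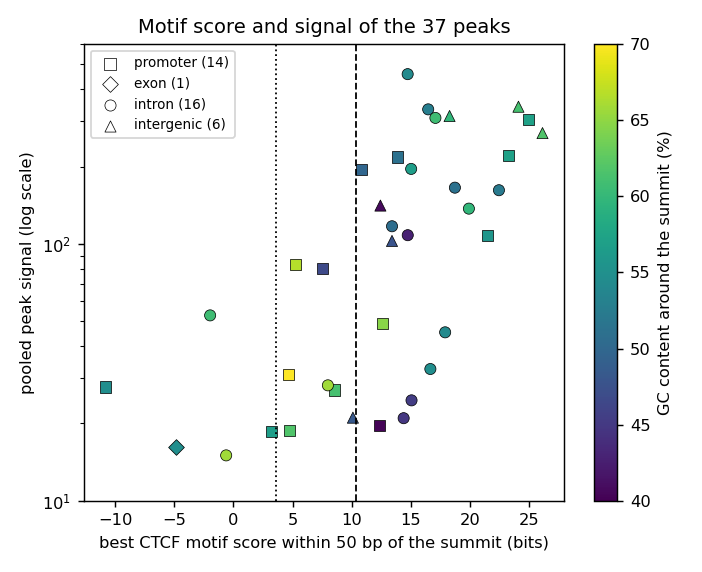
Pooled signal on a log axis against the best motif score within 50 bp of the summit in bits, with the symbol for the position class, the colour for GC content, and lines at the scores reached by 5% (dotted) and 1% (dashed) of windows 1 kb away. All 19 peaks with a signal of at least 100 lie right of both lines, and the 5 left of the dotted line have signals of 52.7 or less.

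Motif strand, which orders the CTCF sites that anchor loops, was mixed. There were 14 motifs on the forward and 18 on the reverse strand, against 49.8% forward over all optimal peaks with a motif. Left of Kcnq1ot1 there were 9 forward and 13 reverse, and right of its start 5 and 5. Right of the start the strands came in runs: peak 25 was forward, peaks 28, 29 and 30 reverse, peak 31 forward, peaks 32 and 33 reverse, and peaks 35, 36 and 37 forward. Across the gap, peaks 24 and 25 were both forward. Of the 31 neighbouring pairs of motif-bearing peaks, 15 pointed the same way, 8 towards each other and 8 apart.

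Among the 32 sites, 5 resembled each other beyond the motif, and were picked after their sequences were seen. Over the 60 printed bases, any 2 of these 5 had 34 to 42 identical bases, against a median of 22 over all 496 pairs. The 60 bases include the 20 of the motif, and peak 33 with peak 23, which is not among the 5, also had 34.
Peak 32, upstream of Phlda2, chr7:143506026-143506085, reverse strand: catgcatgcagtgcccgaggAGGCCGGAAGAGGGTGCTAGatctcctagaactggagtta
Peak 33, upstream of Phlda2, chr7:143506890-143506949, reverse strand: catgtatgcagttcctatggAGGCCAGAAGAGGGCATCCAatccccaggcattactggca
Peak 9, R74862 intron, chr7:143044983-143045042, forward strand: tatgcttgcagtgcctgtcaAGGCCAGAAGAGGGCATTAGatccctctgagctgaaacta
Peak 20, Kcnq1 intron, chr7:143114943-143115002, forward strand: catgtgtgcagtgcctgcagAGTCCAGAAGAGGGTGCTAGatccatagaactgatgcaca
Peak 36, Nap1l4 intron, chr7:143544534-143544593, forward strand: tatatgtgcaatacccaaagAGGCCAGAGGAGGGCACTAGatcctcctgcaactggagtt
Of these 5 motifs, 4 lay wholly in soft-masked repeat sequence and that of peak 36 in part. Signals of the 5 ranged from 20.97 (peak 20) to 141.0 (peak 33), so that like sequences carried both weak and moderate peaks. In all, 5 of the 37 summits were in repeats, against 17.4% of all optimal summits.

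Strong matches of the matrix anywhere in the sequence, at 14.7 bits or more, numbered 21 in the domain, or 2.85 per 100 kb against 1.83 on chromosome 7. An optimal summit lay within 50 bp of 17 of the 21 (81.0%), and of 52.4% of the matches on chromosome 7. The 175.6 kb gap over Kcnq1ot1 held no such match. It was defined by having no optimal peak, so only matches without one could fall in it. Such matches were 4 of 21 in the domain and 1265 of 2660 on chromosome 7. Whether the gap is poor in motifs therefore cannot be read from this. Of the 4 without an optimal peak, those at 143476870 and 143601879 had an entry in the full pooled list, and those at 142994439 and 143572806 had none. The match at 143601879 also had a summit of the conservative list beside it, at 143601911 with a signal of 25.8. No strong match lay within 1 kb of the start of any of the 8 genes, as for most genes, since 6.45% of all gene starts had one. The best at a start was 12.6 bits at Ascl2, and the Kcnq1ot1 start had 4.39.

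Replicates gave nearly the same profile of the domain. All 37 peaks had a summit within 100 bp in the replicate 1 list and 36 in both, against 97.5% of all optimal peaks in both. Median signals were 50.1 in replicate 1 and 47.8 in replicate 2, against 31.2 and 29.6 over all optimal peaks in both lists. After scaling by those genome-wide medians, the log2 ratio of replicate 1 to replicate 2 ran from -1.13 to 0.61, with 17 above and 19 below 0. Its SD was 0.36 over the 36 peaks, and 0.50 over all. Strong peaks varied less: the SD was 0.23 for the 19 peaks of at least 100 (0.21 over all such peaks) and 0.47 for the 14 matched peaks under 50 (0.68 over all). Among the strong ones peak 37, in an intron of the cysteinyl-tRNA synthetase gene Cars, differed most, with 99.9 in replicate 1 and 63.1 in replicate 2 (log2 ratio 0.59). The largest difference of all was at peak 12 of Tssc4, at -1.13. At that spread the order of the weak peaks among themselves was not resolved. Of the 37 peaks, 34 were also in the conservative list, against 87.6% of all optimal peaks; peaks 12, 27 and 34, with signals of 18.7, 15.02 and 16.1, were not. That list added 3 weak summits, 1 of which, at 143108428 with a signal of 27.3, is within 1 kb of a Kcnq1 transcript start.

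**Figure D4:**
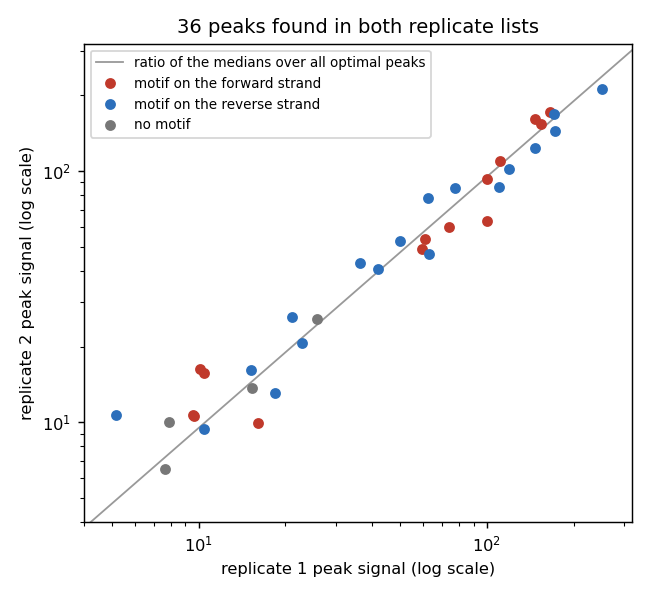
Signal of the 36 matched peaks in replicate 2 against replicate 1, both on log axes, coloured by motif strand, with a line at the ratio of the medians over all optimal peaks. The points follow the line from about the weakest matched peak to peak 2 at 251.0 and 210.9, and scatter most at the low end.

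For comparison, 2 other imprinted domains were built by the same rule, with no test since the domains were chosen and each is 1 region. Igf2 to H19, the neighbouring domain, where CTCF binds the control region on the maternal copy, had 24 peaks in 291.3 kb, or 8.24 per 100 kb, with a median signal of 113.8. Dlk1 to Dio3 on chromosome 12 had 36 peaks in 1028 kb, or 3.50 per 100 kb, with a median of 37.6. Kcnq1 and Cdkn1c lay between them in density, and had the highest single peak, 457.9 against 225.5 and 374.7. Each of these peaks lay in a 100 kb flank and not between the genes that set its domain, the highest being peak 2 in Th. A motif was found in 22 of 24, 25 of 36 and, in the Kcnq1 and Cdkn1c domain, 32 of 37. The longest gap was 175.6 kb in the latter, 61.6 kb in Igf2 to H19 and 135.4 kb in Dlk1 to Dio3.

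**Figure D5:**
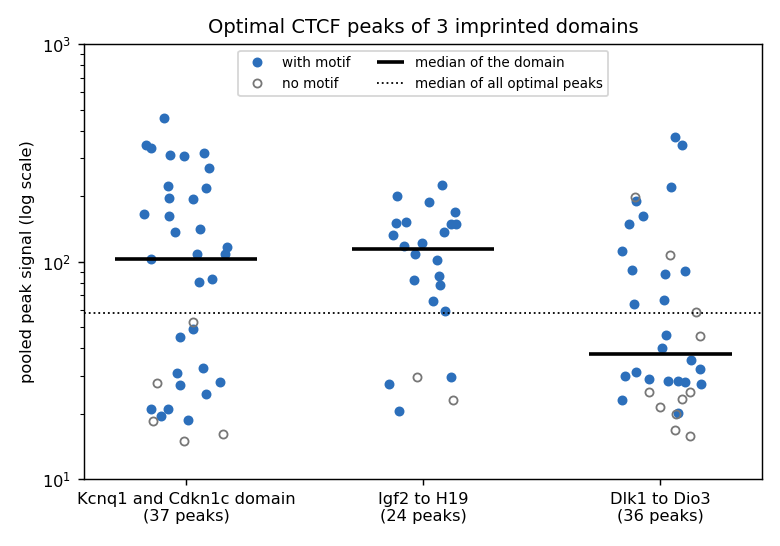
Pooled signal on a log axis of every optimal peak of 3 imprinted domains, filled where a motif was found, with a bar at each domain's median and a dotted line at the median of all optimal peaks. The medians are 102.7, 113.8 and 37.6, and the Kcnq1 and Cdkn1c domain spreads from 15.02 to 457.9.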

How the data were processed

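The 2 CTCF libraries of 1 group were used, from 1 pool of limb tissue. The 5 deposited peak lists on mm10 were each derived from filtered alignments (replicate 1, replicate 2, pooled) or from those lists by an IDR (irreproducible discovery rate) threshold (conservative, optimal), per the notes deposited with the libraries. Aligner, peak caller, control and thresholds: not given in the sources used here. Signal per peak, as deposited, has an unstated normalization, with 1 scale for the pooled and optimal lists and others for the replicate lists, and the deposited IDR score was not used for any result. Read depth is unknown, so no value carries a counting error of reads.

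Replicate values are those of the nearest summit within 100 bp in each full replicate list. Genes and transcript starts came from GENCODE M21, and sequence from RefSeq's copy of GRCm38.p6, the same build as mm10. A promoter peak has its summit within 1 kb of any transcript start of a gene. The motif matrix was refined in 10 rounds on the 1000 strongest peaks of autosomes other than chromosome 7, and both strands were searched. With 1 group and peaks that share libraries, no test was made and counts stand beside the share of all optimal peaks. The matching and motif steps were tested on simulated data, and the gap step was not (Python 3.11.15, numpy 2.4.6, pandas 2.3.3, scipy 1.17.1, pysam 0.24.0).

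The domain, genes and lists were chosen with earlier results of these data known. Peaks given in full are the 10 strongest, any in Kcnq1ot1 or within 10 kb of its start, and those within 1 kb of a start of the 8 genes. Peak 25, as the nearest to the Kcnq1ot1 start, and Phlda2's nearest peaks were also given. All others given with values were picked after the values were seen. Genes named are the 8, others of the domain with a promoter peak, and a list of 12 neighbours. Alternatives were the conservative list, the strongest 50% of the optimal list, each replicate alone, other flanks, promoter widths, match distances and motif settings.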

Additional observations from a re-analysis of the deposited data

How the results depend on the processing

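Of 51 values recomputed under alternative settings, 37 stayed within 1.5 times of the count, or within the replicate spread, and 14 moved. The tally includes signals with 1 replicate left out, set against pooled signals on another scale. For those it does not measure stability. With only the strongest 50% of the optimal list, 21 peaks were left, with a median signal of 194.1, and all 21 had a motif and a summit in both replicate lists. Of these 9 motifs were forward, 4 peaks lay in Kcnq1, 1 of the 8 genes kept a promoter peak, and the peak nearest the Kcnq1ot1 start was peak 24, with 309.3. The median signal was 83.3 with a 50 kb flank and 80.4 with none, since strong peaks at the edges of the domain dropped out. With promoters of 5 kb, 7 of the 8 genes had a peak, and Kcnq1ot1 did not.

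Leaving out 1 replicate, by taking the strongest 49970 peaks of the other, gave 36 to 37 peaks, 31 to 33 with a motif, 13 to 16 forward, 34 to 36 in both lists, 7 to 9 in Kcnq1 and 4 genes with a promoter peak each time. On the scale of the replicate lists, the median signal was 46.5 to 54.9, and that of the peak nearest the Kcnq1ot1 start 16.3 to 25.8, the latter at peak 26, 80.4 kb away. No paired analysis was possible because there is 1 group. Kcnq1ot1 held no peak in the optimal list, the conservative list or the strongest 49970 of either replicate. The strongest 50% of the optimal list is part of that list, so it could hold none there either. All these lists come from the same 2 libraries. Unknown depth and signal scale limit what can be said of weak peaks.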
